A study of Arabidopsis thaliana with 11 samples.

Results

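STERILE APETALA (SAP, AT5G35770) and the floral co-repressor genes LEUNIG (LUG, AT4G32551), LEUNIG HOMOLOG (LUH, AT2G32700), SEUSS (SEU, AT1G43850) and TOPLESS (TPL, AT1G15750) were followed through 6 lists of ChIP-seq binding sites (BSs). The lists cover the floral MADS-domain regulators AP1 (APETALA1) and SEP3 (SEPALLATA3). A BS belonged to a gene where the authors had named that locus beside the peak, which they did for summits from 3000 bp upstream to 1000 bp downstream of a gene. By this rule 35 of the 18963 listed peaks belonged to the 5 genes. SAP held 22 of them, TPL 6, LUH 4 and LUG 3, and SEU held none.

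Chromatin came from Arabidopsis thaliana inflorescences (ecotype Landsberg) of the pAP1:AP1-GR ap1-1 cal-1 line. In this line AP1 is fused to the ligand-binding part of the glucocorticoid receptor (GR) and driven by the AP1 promoter, in plants that lack functional AP1 and CAULIFLOWER, so that floral meristems start together when dexamethasone is applied. All groups, the controls included, shared this genotype and the dexamethasone treatment, and tissue was taken at day 2, 4 or 8. An anti-GR antibody precipitated the AP1 fusion, a peptide antibody precipitated SEP3, and pre-immune serum gave the mock control of each day. The groups were AP1 at days 2, 4 and 8, SEP3 at days 2, 4 and 8, and mock at days 2, 4 and 8. Both SEP3 day 2 samples were titled as day 2 but carried a tissue label of 4 days, so the values of the SEP3 day 2 list have that doubt.

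LUG and LUH are co-repressors of the Groucho and Tup1 type, which do not bind DNA themselves. SEU is an adaptor that joins LUG to DNA-binding proteins, MADS-domain factors among them, and the LUG and SEU complex keeps the homeotic gene AGAMOUS off in the outer whorls of the flower. TPL is a co-repressor of a related kind that is recruited by proteins with an EAR motif and works with histone deacetylases. SAP is not a co-repressor. It encodes an F-box protein, the substrate-binding part of a ubiquitin ligase, is needed for normal inflorescences, flowers and ovules, and is known to direct the PEAPOD (PPD) proteins for degradation, which themselves act with TPL.

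The lists were of very unequal length, with 498, 956 and 1075 AP1 BSs and 1776, 6843 and 7815 SEP3 BSs at days 2, 4 and 8. Each was called by the authors on combined replicates, so there is 1 list per factor and day, no spread between replicates and no test of any difference below. Fold enrichment, as deposited, compares the signal at a summit with the background estimated from the control, and −log10 q gives the significance of that peak. Because lists were called separately, neither value is on the same scale in different lists. A peak is therefore also given by its percentile, the share of the other peaks of its list with a lower fold enrichment. Read numbers were not analysed here, and a gene without a listed peak is not shown to be unbound.

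Of the 5 genes, only SAP had an AP1 peak at day 2 and at day 8, and SAP and LUH had one at day 4. Over all 37899 annotated nuclear genes, 1.36% had an AP1 peak at day 2, 2.7% at day 4 and 2.97% at day 8. Only SAP had a SEP3 peak at day 2, beside 5.05% of all genes. SAP, TPL, LUH and LUG had SEP3 peaks at day 4 and at day 8, that is 4 of 5 genes, beside 19.4% of all genes at day 4 and 21.4% at day 8. TPL, LUH and LUG, the 3 co-repressor genes with a peak, thus shared the pattern of a SEP3 peak at days 4 and 8 and none at day 2, which 4861 genes (12.8%) had. Both LUG peaks of day 4 had a −log10 q under 10, so that LUG left this pattern when a −log10 q of at least 10 was asked for. SAP was among 285 genes (0.752%) with a peak in all 6 lists, and SEU among the 28942 (76.4%) with a peak in no list. The shares over all genes take no account of gene type or gene length. All 5 genes have an annotated mRNA and are 4782 to 6238 bp long, and no share was taken over genes like them. A gene missing from the annotation that the authors used would also count as one without a peak.

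SAP lies on the minus strand of chromosome 5 (chr5:13936086-13940867, TAIR10) and has 2 exons around a single intron of 2989 bp. Only 45 of the 133509 introns annotated in this genome (0.0337%) are as long, and their median length is 101 bp. No listed peak had its summit upstream of SAP. The 22 peaks formed 4 regions when overlapping peaks of all lists were merged. They were a region in the 3′ UTR, a distal and a proximal region in the intron, and a small one at the gene start. Of the 22 SAP summits 15 lay in the intron, 8 in the proximal and 7 in the distal region. They are the same regions listed again for other days and the other factor, not separate sites. The intron also makes up 2989 of the 4782 bp of SAP. In each of the 6 lists 6.63 to 6.98% of all summits lay inside an intron, a share that takes no account of intron length.

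**Figure D1:**
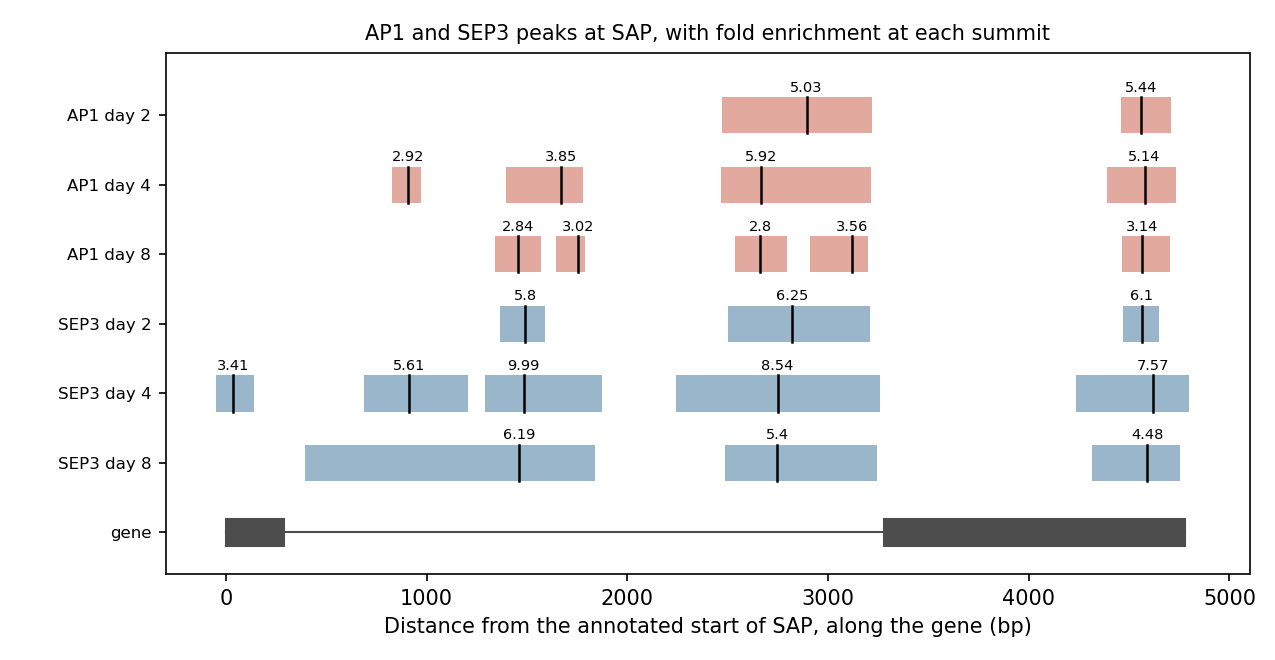
AP1 (red) and SEP3 (blue) peaks along SAP, with the distance from the annotated gene start in bp on the horizontal axis and 1 row per list. Bars span the peaks, black ticks mark summits and numbers are fold enrichments. Dark boxes in the lowest row are the 2 exons and the line between them is the intron. All 6 lists have a peak near the 3′ end and in the distal part of the intron, and AP1 at day 2 has none in the proximal part.

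The 3′ UTR region (chr5:13936067-13936632) held exactly 1 peak in each of the 6 lists, with summits between 4560 and 4617 bp from the gene start. AP1 fold enrichment there was 5.44, 5.14 and 3.14 at days 2, 4 and 8, at the 84.5th, 74.9th and 49.3rd percentile of the AP1 lists. SEP3 fold enrichment there was 6.1, 7.57 and 4.48 at days 2, 4 and 8, at the 82.6th, 88.5th and 75.2nd percentile. Each percentile is a rank within its own list, and as the lists differ in length, no course over time is read from it. AP1 and SEP3 summits of the same day lay 2, 40 and 28 bp apart at days 2, 4 and 8.

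The distal intron region (chr5:13937610-13938624) was the other one with peaks in all 6 lists. AP1 fold enrichment was 5.03 at day 2 and 5.92 at day 4, at the 78.6th and 86.8th percentile. At day 8 AP1 had 2 separate peaks there, of 3.56 and 2.8, at the 67.7th and 26.9th percentile. SEP3 had a single peak at each day, with 6.25, 8.54 and 5.4 at days 2, 4 and 8, at the 84.2nd, 92.8th and 85.3rd percentile. These peaks were wide for their lists. The AP1 peak spanned 744 bp at day 2 and 752 bp at day 4, widths reached by 1.0% and 1.78% of all peaks of those lists, and the SEP3 peaks spanned 707, 1015 and 761 bp at days 2, 4 and 8, reached by 2.76%, 3.17% and 8.93%. The 2 AP1 peaks of day 8 spanned 290 and 258 bp, near the median of 241 bp of their list.

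The proximal intron region (chr5:13938994-13940471) held low-ranking AP1 peaks and high-ranking SEP3 peaks. AP1 had no peak there at day 2. At day 4 it had peaks of 3.85 and 2.92, at the 36.3rd and 5.5th percentile, and at day 8 peaks of 3.02 and 2.84, at the 42.0th and 29.2nd percentile. SEP3 had a peak of 5.8 at day 2 (79.2nd percentile), peaks of 9.99 and 5.61 at day 4 (97.1st and 72.7th percentile) and a single peak of 6.19 at day 8 (91.0th percentile). The peak of 9.99 had the highest percentile of all 35, and ranked 198th of the 6843 SEP3 peaks of day 4. All AP1 peaks of this region thus fell below the median of their lists and all SEP3 peaks above it. As the lists differ in length, no preference for either factor is read from this split. The AP1 and SEP3 peaks of LUH at day 4 were split in the same way, at the 12.4th and 70.4th percentile. The SEP3 peak of day 8 was 1445 bp wide and overlapped both day 4 peaks, and 1.1% of the list was as wide.

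The region at the gene start (chr5:13940725-13940919) was listed for SEP3 at day 4 only, with a summit in the 5′ UTR 36 bp from the start. Its fold enrichment was 3.41 and its −log10 q 8.78, at the 26.0th percentile. No other SEP3 peak at SAP had so low a percentile.

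SAP had many peaks for a listed gene. With 5 AP1 peaks at day 8 it was among 4 of the 1145 genes listed there with at least 5. Its 4 AP1 peaks at day 4 were reached by 9 of 1045 genes, and its 5 SEP3 peaks at day 4 by 47 of 7520. At day 2 its 2 AP1 peaks and 3 SEP3 peaks were reached by 16.7% and 5.67% of listed genes, and its 3 SEP3 peaks at day 8 by 10.4%. Of the 5 AP1 peaks of day 8, the distal and the proximal intron region each held 2, inside a single SEP3 peak of that day. These counts take no account of gene length or of a wide signal listed as several peaks. When the peaks of all lists were merged over the genome, 243 of 8833 regions (2.75%) held peaks of all 6 lists, and SAP was among 17 annotated genes beside which 2 or more such regions were listed. No other gene was named beside any SAP peak.

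**Figure D2:**
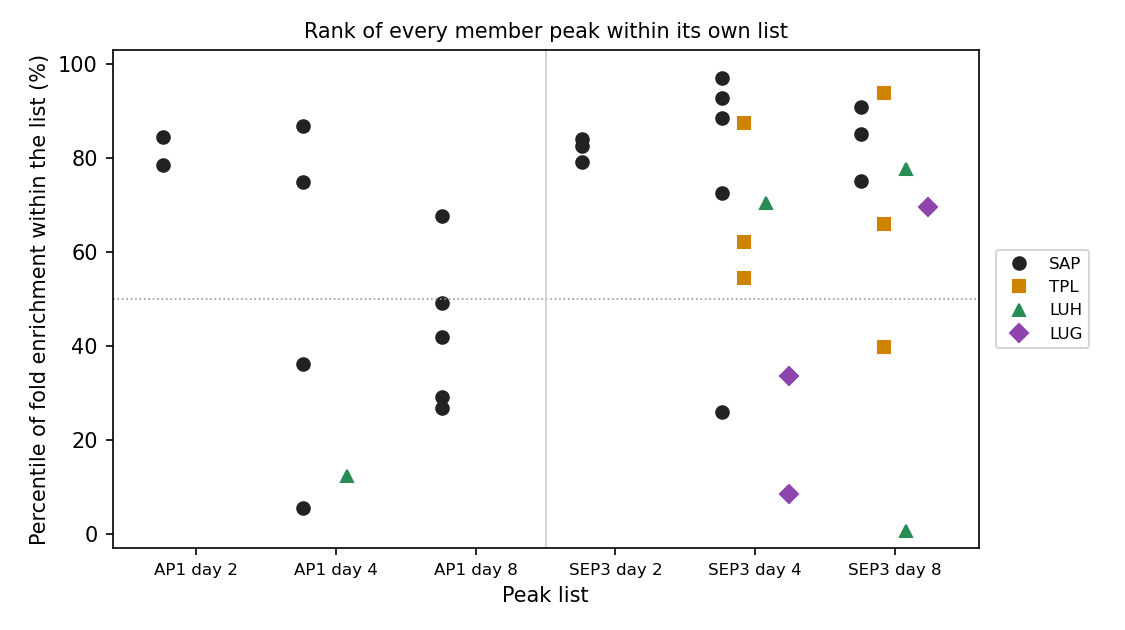
Percentile of fold enrichment within its own list (vertical axis, %) for each of the 35 peaks at the 5 genes, by peak list. Each symbol is 1 peak, and the dotted line marks the 50th percentile. SAP peaks fill all 6 lists, TPL and LUG appear only for SEP3 at days 4 and 8, and SEU has no symbol because it has no peak.

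Sequence under the SAP summits was read from the TAIR10 reference, which is of the Columbia accession and not of Landsberg. MADS-domain proteins are known to bind the CArG box, which is searched here as CC and GG around a core of 6 bases that are A or T. None of the 35 peaks at the 5 genes held an exact box, either within 50 bp of the summit or anywhere in the peak. Over the whole lists 5.58 to 7.09% of peaks had one within 50 bp and 8.33 to 10.4% anywhere in the peak, so that its absence was the common case. With 1 mismatch allowed, 15 of the 35 peaks had a box within 50 bp of the summit, namely 3 of 12 AP1 peaks and 12 of 23 SEP3 peaks. For AP1 these were 0 of 2, 2 of 5 and 1 of 5 at days 2, 4 and 8, and for SEP3 1 of 3, 6 of 11 and 5 of 9. The share over all peaks was 31.9 to 33.7% in the AP1 lists and 32.8 to 34.7% in the SEP3 lists. Peaks of several lists shared a box, so that the 15 peaks came from 6 of the 11 merged regions. They are not independent, and no excess of boxes is read from these counts.

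The windows around both strong SEP3 summits of day 4 in the SAP intron each held a box with 1 mismatch (capitals), centred 4.5 and 10.5 bp from the summit. They are shown on the plus strand because they lie at the SEP3 peaks of highest fold enrichment in the day 4 list among the 5 genes, and SAP is read from the other strand.
SAP proximal intron, chr5:13939333-13939433: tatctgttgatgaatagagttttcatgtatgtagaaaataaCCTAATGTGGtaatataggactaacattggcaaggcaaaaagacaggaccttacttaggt
SAP distal intron, chr5:13938068-13938168: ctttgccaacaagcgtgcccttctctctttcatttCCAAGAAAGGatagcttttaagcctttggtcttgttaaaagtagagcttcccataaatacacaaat
In the proximal region 1 AP1 summit of day 8 and the strongest SEP3 summit of each day lay within 50 bp of this box. The AP1 summits of day 4, the other AP1 summit of day 8 and the weaker SEP3 summit of day 4 did not. In the distal region none of the AP1 summits had the box within 50 bp, and the SEP3 summits of days 4 and 8 did.

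The distal region also held a GA-rich motif, 8 alternating bases of G and A on either strand, 2660 bp from the gene start. It lay within 50 bp of the AP1 summits of day 4 and day 8 at 2666 and 2663 bp, and of no SEP3 summit. Over the lists such a motif occurred within 50 bp of 5.86% of AP1 summits at day 4 and 2.7% at day 8.

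TPL lies on the minus strand of chromosome 1 (chr1:5414817-5421033). It had no AP1 peak and no SEP3 peak at day 2, and the nearest SEP3 summit of day 2 lay 13.8 kb downstream of the gene. At days 4 and 8 SEP3 had the same 3 regions, all with summits upstream of the annotated start. The strongest was at the start itself (chr1:5420652-5421338), with a fold enrichment of 7.38 at day 4 and 6.78 at day 8, at the 87.6th and 94.0th percentile. At day 8 it ranked above all SAP peaks of the list. Its summits lay 37 and 35 bp upstream of the start.

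The other TPL regions were weaker. At about 1.2 kb upstream (chr1:5422115-5422417) SEP3 had 4.43 at day 4 and 2.97 at day 8, at the 54.6th and 39.8th percentile. At about 2.6 kb upstream (chr1:5423123-5423879) it had 4.86 at day 4 and 3.92 at day 8, at the 62.1st and 66.0th percentile. The authors named AT1G15757 and AT1G15760 beside this last region as well, and its summits lay nearer to both of these genes than to TPL. The other TPL peaks were listed for TPL alone. TPL had 3 SEP3 peaks at each of both days, a number reached by 9.15% of listed genes at day 4 and 10.4% at day 8.

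The start-site peak of TPL was rich in GA repeats and had no CArG box near its summit. It held 22 overlapping matches to the GA-rich motif at day 4 and again at day 8, and 2 of them lay within 50 bp of the summit. Over all SEP3 peaks 17.8% at day 4 and 16.6% at day 8 held at least 1 match. The longest run, in the 5′ UTR from 32 bp after the start, is shown because most of the matches fall in it.
TPL GA run, chr1:5420979-5421001, plus strand: TCTCTCTCTCTCTCTCTCTCTCT
By contrast the region at about 2.6 kb had no GA-rich match and a box with 1 mismatch (capitals) centred 3.5 bp from the day 8 summit.
TPL far upstream, chr1:5423619-5423719, plus strand: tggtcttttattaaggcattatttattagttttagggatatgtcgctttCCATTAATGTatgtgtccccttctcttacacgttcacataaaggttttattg

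LUH, on the plus strand of chromosome 2 (chr2:13866721-13872246), was the only co-repressor gene of the 4 with an AP1 peak. That peak was listed at day 4, 1339 bp upstream of the start, with a fold enrichment of 3.29 and a −log10 q of 6.41. It ranked 837th of 956, at the 12.4th percentile, and was lost when a −log10 q of at least 10 was asked for. SEP3 had a peak at the same place (chr2:13864921-13865597) of 5.42 at day 4 and 4.69 at day 8, at the 70.4th and 77.8th percentile, and the AP1 summit lay 16 bp from that of SEP3 at day 4. At day 8 SEP3 had a further peak 2153 bp upstream, of 1.98, which at the 0.589th percentile was among the weakest of its list.

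All LUH peaks were also named for AT2G32680, AT2G32690 and AT2G32698. The summits of the stronger region lay 660 to 688 bp upstream of AT2G32690, annotated as glycine-rich protein 23 and read in the other direction. They also lay 807 to 835 bp upstream of AT2G32698, a microRNA gene, and so nearer to both genes than to LUH. The summit of the weak day 8 peak lay inside AT2G32690, 142 bp from its start. The window of the stronger region held a CArG box with 1 mismatch (capitals) within 50 bp of the summit. This was so in all 3 lists that had a peak there, AP1 day 4, SEP3 day 4 and SEP3 day 8. The window is shown because among the 5 genes this is the only region outside SAP where both factors had a peak.
LUH upstream, chr2:13865320-13865420, plus strand: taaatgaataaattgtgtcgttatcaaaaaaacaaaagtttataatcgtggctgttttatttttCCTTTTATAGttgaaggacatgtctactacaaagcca

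LUG lies on the plus strand of chromosome 4 (chr4:15707425-15713662) and had the fewest peaks of the 4 genes with any. It had no AP1 peak, and the nearest AP1 summits were about 104 kb downstream at all 3 days. SEP3 had peaks of 3.61 and 2.91 at day 4, 2585 and 661 bp upstream of the start, at the 33.7th and 8.44th percentile. At day 8 it had a peak of 4.13 at 2804 bp upstream, at the 69.7th percentile, and the peak at 661 bp was no longer listed. The day 8 peak was 1148 bp wide, a width reached by 2.51% of its list. It also overlapped a stronger SEP3 peak of day 4, of 4.99, whose summit lay beyond the 3000 bp window and which was not named for LUG.

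The peak nearest to the LUG start had a −log10 q of 5.83 at day 4, and its window is shown because it held a box with 1 mismatch (capitals) centred 2.5 bp from the summit.
LUG upstream, chr4:15706714-15706814, plus strand: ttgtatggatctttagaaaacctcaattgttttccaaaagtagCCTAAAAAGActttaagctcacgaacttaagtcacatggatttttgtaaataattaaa

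**Figure D3:**
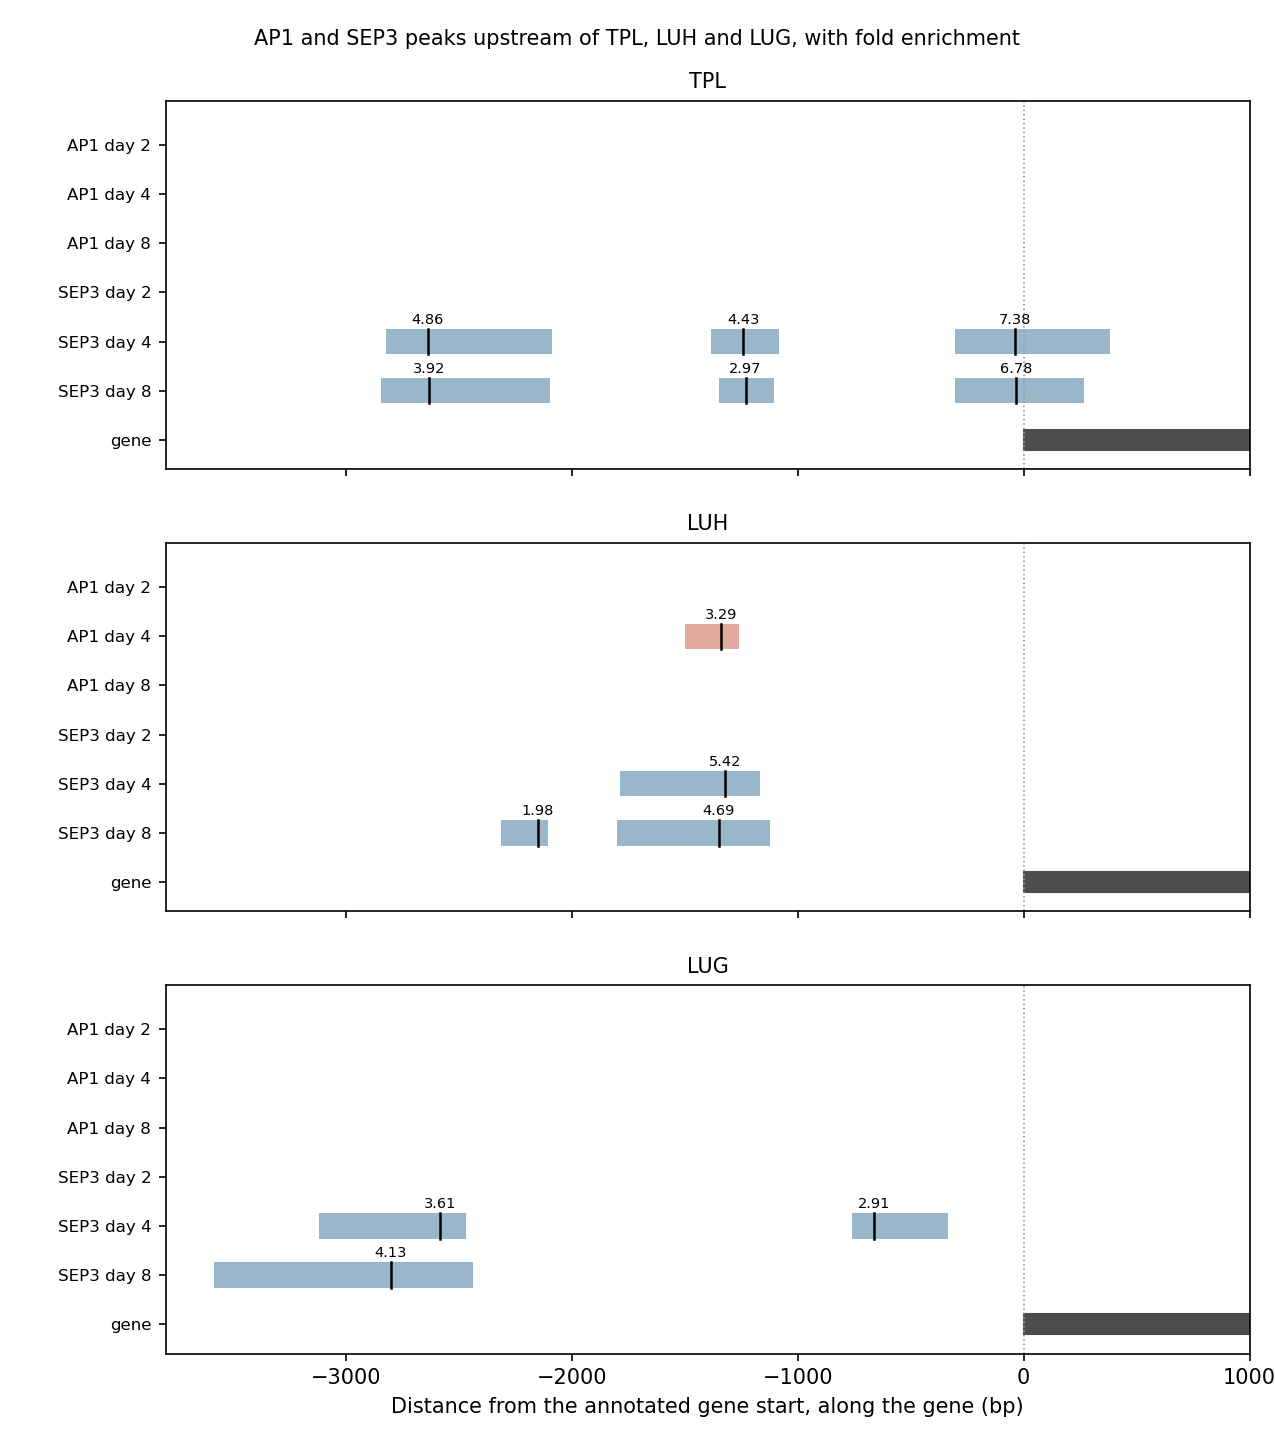
AP1 (red) and SEP3 (blue) peaks upstream of TPL, LUH and LUG, with the distance from each annotated gene start in bp on the horizontal axis and 1 row per list. Bars span the peaks, black ticks mark summits, numbers are fold enrichments, and the dark bar is the first part of the gene. Apart from the AP1 peak of 3.29 at LUH, all peaks are those of SEP3 at days 4 and 8.

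SEU (chr1:16616988-16622049, plus strand) had no listed peak for either factor at any day. The nearest SEP3 summits were 94.6 kb from the gene at day 2 and 15.7 kb at days 4 and 8, all upstream. The nearest AP1 summits were 803, 215 and 215 kb downstream at days 2, 4 and 8. SEU thus lay far outside the assignment window in all 6 lists.

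All 12 AP1 peaks at SAP and LUH overlapped a SEP3 peak of the same day by at least 1 bp, and 10 of them lay wholly inside it. This was the common case, since 85.1%, 99.8% and 96.3% of all AP1 peaks of days 2, 4 and 8 overlapped a SEP3 peak of the same day, and 47.8%, 98.8% and 92.0% lay inside one. The exceptions were the 2 AP1 peaks of day 2, which were wider than the SEP3 peaks they overlapped. Summits of the overlapping pairs lay 2 to 370 bp apart. They were within 150 bp of each other in 9 of 12 cases, and 6 of 12 pairs overlapped by at least 50% of both peaks.

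To set days and factors side by side despite the separate calling, the log2 ratio of fold enrichment was taken for each pair of overlapping peaks and the median over all such pairs of the 2 lists was subtracted. From day 2 to day 4 the SAP regions lay on both sides of the median, with the 3′ UTR just below the lower quartile of all pairs for both factors. For AP1 at day 4 over day 2 the 3′ UTR and the distal intron gave −0.26 and 0.06, at the 23.5th and 57.3rd percentile of 392 pairs. For SEP3 at day 4 over day 2 the 3′ UTR, distal and proximal regions gave −0.32, −0.18 and 0.15, at the 24.1st, 34.4th and 64.3rd percentile of 1418 pairs.

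From day 4 to day 8 the SEP3 peaks of SAP were on the low side. For SEP3 at day 8 over day 4 the 3′ UTR, distal and proximal regions gave −0.43, −0.34 and −0.37, at the 7.91st, 12.6th and 11.1st percentile of 5844 pairs. At day 4 these regions had 7.57, 8.54 and 9.99, beside 7.38 at the TPL start and lower values at the other co-repressor peaks. The highest fold enrichment of the whole SEP3 list fell from 12.27 at day 4 to 8.92 at day 8. Whether the ratio depends on the strength at day 4 was not tested. The co-repressor genes were spread over the range in the same pair of lists. The start, 1.2 kb and 2.6 kb regions of TPL gave 0.20, −0.25 and 0.01 (72.3rd, 18.9th and 52.1st percentile). LUH gave 0.12 (63.9th percentile), and LUG gave 0.05 (56.6th percentile) against the stronger day 4 peak that was not named for it. Against the day 4 peak that was named for LUG the value was 0.52, above the upper quartile of 0.23 of all pairs, a pairing added after the data had been seen.

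Of the 5 AP1 peaks at SAP at day 8, 3 were also on the low side. Both distal peaks were set over the same day 4 peak of 5.92, and both proximal peaks over that of 3.85, so these values are not separate. At day 8 over day 4 the 3′ UTR gave −0.36 and the 2 distal peaks −0.38 and −0.73, at the 16.3rd, 15.1st and 2.22nd percentile of 631 pairs, while the 2 proximal peaks gave 0.00 and −0.09, at the 50.8th and 39.7th percentile. The −0.38 and the −0.09 were lost when summits had to lie within 150 bp. The 3′ UTR and the other distal peak stayed on the low side under that rule. Over all pairs the median log2 ratio was itself −0.35 for AP1 and −0.32 for SEP3 at day 8 over day 4, and 0.18 and 0.63 at day 4 over day 2. These values are ratios relative to those medians. The regions of a gene come from the same lists and are not replicates.

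For AP1 over SEP3 on the same day, SAP regions fell on both sides of the median. The 3′ UTR gave 0.19, 0.22 and 0.25 at days 2, 4 and 8, at the 66.2nd, 71.4th and 71.0th percentile of 424, 954 and 1035 pairs. In the distal intron AP1 over SEP3 was 0.04 at day 2 and 0.24 at day 4 (53.7th and 74.2nd percentile), and 0.16 and −0.19 for the 2 AP1 peaks of day 8. The proximal intron leaned to SEP3, with −0.60 and −0.17 at day 4 (6.3rd and 32.9th percentile) and −0.27 and −0.36 at day 8 (26.1st and 19.2nd percentile). Both day 8 values were taken against the same SEP3 peak. The values of −0.60 and −0.27 came from summits 183 and 291 bp apart. They were lost when summits had to lie within 150 bp, which left −0.18 at day 4 and −0.36 at day 8 in the proximal intron. The distal value of 0.16 at day 8 came from summits 370 bp apart and was lost as well. LUH gave 0.05 at day 4 (55.4th percentile).

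**Figure D4:**
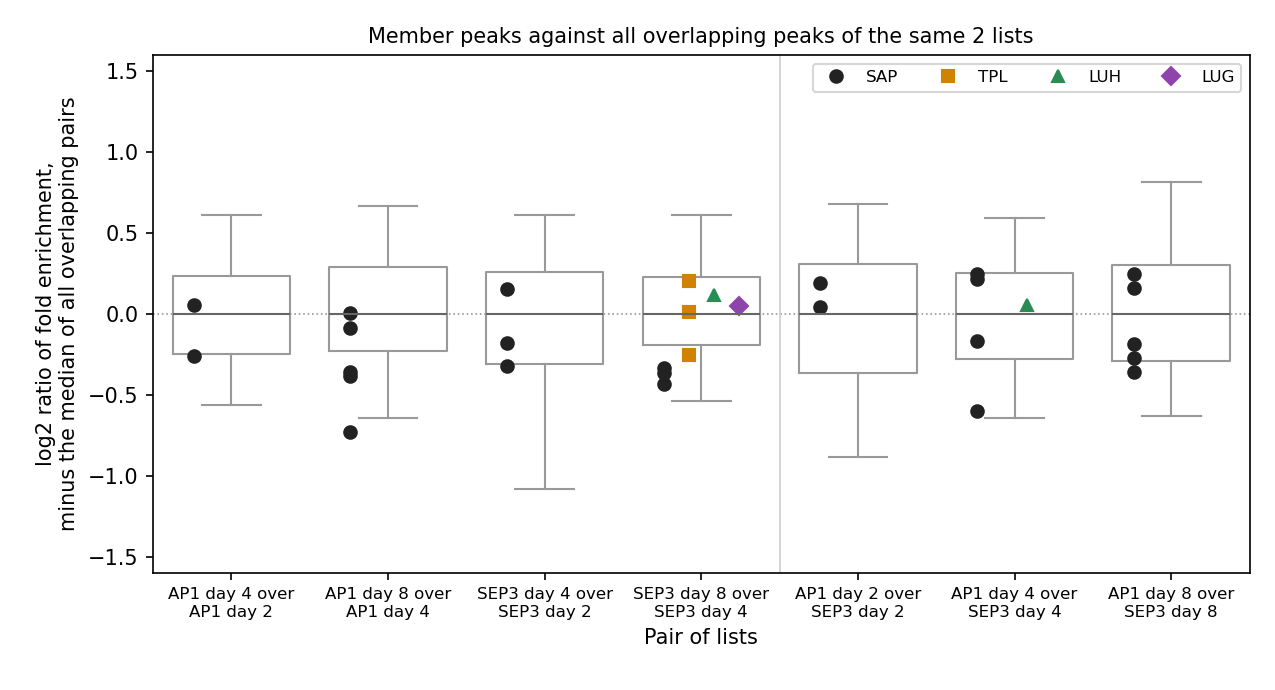
Log2 ratio of fold enrichment minus the median of all overlapping pairs (vertical axis) for the peaks at SAP, TPL, LUH and LUG, by pair of lists. Boxes give the quartiles and whiskers the 5th to 95th percentile of all pairs, and each symbol is 1 peak. For SEP3 at day 8 over day 4 the 3 SAP symbols lie between −0.43 and −0.34, below the box, and those of TPL, LUH and LUG between −0.25 and 0.20. The LUG symbol is taken against the day 4 peak that was not named for LUG.

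A list of 15 further genes of the same machinery was examined, namely relatives of TPL (TPR1 to TPR4) and of SEU (SLK1 to SLK3), the histone deacetylases HDA19 and HDA6, the adaptor NINJA, the ubiquitin ligase subunit ASK1, and PPD1, PPD2, KIX8 and KIX9 of the PEAPOD module on which the SAP ligase acts. Of these, 7 had a peak in at least 1 list and 8 had none, beside 76.4% of all genes with none, the 8 being TPR4, SLK1, SLK3, HDA19, HDA6, NINJA, PPD1 and ASK1. For AP1 the only one was PPD2, at day 8, beside 1.36%, 2.7% and 2.97% of all genes with an AP1 peak at days 2, 4 and 8. A SEP3 peak was listed for 2 of the 15 at day 2 and for 6 of the 15 on each later day, beside 5.05%, 19.4% and 21.4% of all genes in the 3 SEP3 lists. Here too the shares of all genes were not matched in gene type or length.

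PPD2 (AT4G14720), a repressor that limits cell proliferation in the leaf, and KIX9 (AT4G32295), an adaptor that joins PPD proteins to TPL, had peaks in 4 and 3 lists. For PPD2 AP1 had a peak of 2.72 at 297 bp upstream of the start at day 8, at the 20.1st percentile, inside the SEP3 peak of that day. For PPD2 the SEP3 peak about 390 bp upstream of the start had a fold enrichment of 4.57, 8.67 and 6.8 at days 2, 4 and 8, at the 57.9th, 93.4th and 94.1st percentile. For KIX9 the SEP3 peak about 1.26 kb upstream had 4.17, 9.69 and 6.3 at days 2, 4 and 8, at the 44.4th, 96.4th and 91.8th percentile. These were the highest percentiles among the 15 genes at days 4 and 8. The KIX9 peaks were also named for AT4G32290. Neither gene had an exact CArG box in any peak, and the PPD2 window of day 4 is shown because it held 2 boxes with 1 mismatch (capitals).
PPD2 upstream, chr4:8435445-8435545, plus strand: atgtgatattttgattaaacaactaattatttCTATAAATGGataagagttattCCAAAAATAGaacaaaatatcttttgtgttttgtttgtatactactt

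The genes whose strongest peaks were most like those of SAP were sought among 8956 others by the summed absolute difference in percentile over the 6 lists, with 0 where a list had no peak. AT1G48330 came nearest with 12.1 percentile points, followed by AT2G41820, annotated as a leucine-rich repeat protein kinase, with 24.2 points, and AT5G10310, annotated as an EPIDERMAL PATTERNING FACTOR-like protein, with 25.9 points. For LUH the nearest were AT1G09815 with 9.59 points, AT1G11125 with 9.94 and AT5G37540 with 12.4, the last of which had no AP1 peak at any day.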

How the data were processed

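The authors mapped the reads to TAIR10 with Bowtie 0.12.7, removed organellar and multiply mapping reads, pooled replicates, and ran MACS2 on each pool against pre-immune serum. CASAVA 1.7 and 1.8 are named in the submitters' processing notes. The deposited fold enrichment is a linear ratio and the deposited significance is the −log10 of a q value. The −log10 p column was not used.

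Members and gene lists were chosen with earlier results of these data known. Peaks, loci and summits were taken from the 6 lists after 230 and 111 blank lines of the AP1 day 4 and day 8 files were dropped. The authors' 28685 peak and gene pairs were checked, and 613 name a locus that is not in the annotation used (TAIR10.1, RefSeq, the same nuclear chromosome lengths), and at least 99.7% of the rest in each list had the summit in the stated window. Peaks were called overlapping from 1 bp, regions were made by merging overlapping peaks, and motifs were searched on both strands in windows of 101 bases around summits. Named genes were the 5 members, genes of the co-repressor list with a peak in at least 3 lists, and for members with peaks in at least 3 lists the 3 genes nearest in percentile pattern that shared no peak. Pairing, merging and motif search were tested on simulated data. No statistical test was run, since each factor and day has 1 pooled list. Alternatives were a −log10 q of at least 10, other gene windows, 498 peaks per list, summits within 150 bp, reciprocal overlap of 50%, ranking by −log10 q, ratios without the median, and CArG boxes with 1 mismatch or over the whole peak. Python 3.11.15, NumPy 2.4.6, SciPy 1.17.1 and Matplotlib 3.10.9 were used.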

Additional observations from a re-analysis of the deposited data

How the results depend on the processing

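No paired analysis was possible because each factor and day has 1 peak list called on combined replicates, and for the same reason no replicate could be left out. The number of genes with a peak changed most for SEP3. With 498 peaks per list it was 1 at day 4 and 1 at day 8 for SEP3, which was SAP at day 4 and TPL at day 8, and 1 for AP1 at day 4. At a −log10 q of at least 10 it was 1 for AP1 at day 4, where LUH was lost, and 3 for SEP3 at day 4, where LUG was lost. With a window of 1000 bp upstream to the gene end it was 1 for AP1 at day 4, and 3 at day 4 and 2 at day 8 for SEP3. SAP was counted in each list under these settings, except for SEP3 at day 8 with 498 peaks per list. The 35 peaks became 25 at a −log10 q of at least 10 and stayed 35 with gene windows rebuilt from the annotation. The 11 merged regions became 15 by summits within 150 bp and 18 by reciprocal overlap. AP1 peaks held in common with SEP3 were 6 of 12 by reciprocal overlap. Regions with a CArG box within 50 bp of a summit were 0, and 6 with 1 mismatch allowed. Ranking by −log10 q moved each of the 13 percentiles of strongest peaks by at most 7.7 points, with the strongest peak chosen anew under each ranking. Single peaks could move further. In the SAP distal intron the AP1 peak of 2.8 at day 8 went from the 26.9th to the 45.1st percentile. The AP1 peak of day 2 there went from the 78.6th to the 92.2nd.

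Without the median subtracted, 14 of 30 log2 ratios changed sign. For day 8 over day 4 they became −0.35 (SAP proximal, AP1), −0.27 (LUG), −0.21 (LUH), −0.12 (TPL start) and −0.31 (TPL at 2.6 kb). For SEP3 at day 4 over day 2 they became 0.31 and 0.45 (SAP 3′ UTR and distal). For AP1 over SEP3 they became −0.17 and −0.31 at day 2, −0.56, −0.53 and −0.72 (LUH) at day 4, and −0.51 and −0.60 at day 8. Pairing by summits within 150 bp reversed none of the 23 ratios it could give. Among those it could not give were the −0.60 at day 4 and −0.27 at day 8 of the SAP proximal region for AP1 over SEP3. The others were 0.16 (SAP distal, AP1 over SEP3 at day 8), 0.06 (SAP distal, AP1 at day 4 over day 2) and, at day 8 over day 4, −0.38 (SAP distal, AP1), −0.09 (SAP proximal, AP1) and 0.05 (LUG, SEP3). Pairing the LUG peak of day 8 with the day 4 peak named for LUG, chosen after seeing the data, gave 0.52 in place of 0.05. The pooled lists hold no replicate values, and read depth was not set beside any value here.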
